A study of Mus musculus with 4 samples.

Results

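The BCL2 family is described here in mouse oocytes by 10 genes, chosen by their symbols and matched through their NCBI gene IDs. They comprise the prosurvival members Bcl2, Bcl2l1, Bcl2l10 and Mcl1, the pore-forming effectors Bax, Bak1 and Bok, and the BH3-only members Bid, Bcl2l11 and Bbc3. Of these, 9 genes had rows in the deposited transcript table, with 27 of its 45505 transcripts and 9 of its 17374 genes. Bak1 was not analysed here. The oocytes were at the germinal vesicle (GV) stage, arrested in meiotic prophase, and came from non-primed C57/Bl6/DBA2J F1 hybrid females at postnatal day 16. Control oocytes were not irradiated. Irradiated oocytes received 5 Gy of γ-rays from a Cesium-137 source and were analysed after 24 h. All oocytes were stripped of cumulus cells, held in medium with milrinone, a phosphodiesterase inhibitor that blocks meiotic resumption, and pooled before poly(A) RNA was sequenced, with 2 libraries per group. The series text has control oocytes sequenced directly, so time in culture and irradiation cannot be told apart. Because each library is a pool, fewer oocytes carrying an mRNA and less of it per oocyte cannot be told apart either.

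The proteins of this family decide whether the outer mitochondrial membrane stays closed. BAX, BAK and BOK can form pores that release cytochrome c and start the caspase cascade, the prosurvival proteins bind and restrain them, and BH3-only proteins are the stress sensors that engage both. In the oocytes of primordial follicles, DNA damage activates the p53 relative encoded by Trp63, and the BH3-only genes Bbc3 (PUMA) and Pmaip1 (NOXA) are known to carry the death signal.

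The libraries held between 33349466 and 37232818 estimated counts. All 12 oocyte markers were listed, with a summed level of 46215 to 51481 TPM. TPM is the count scaled by transcript length and then to the same total in every library. Of 14 granulosa and cumulus markers 10 were listed, summing to 17.8 and 20.2 TPM in control and 17.6 and 24.5 TPM in irradiated libraries. Cyp19a1 was the highest at a mean of 9.53 TPM. Nr5a2 had 382 to 702 counts over the libraries, Kitl 172 to 222, Fshr 91 to 148 and Cyp11a1 59 to 133. Inha, Inhba and Hsd17b1 had at most 11 counts in any library, and Gja1 and Has2 at most 2. Amh, Foxl2, Amhr2 and Ptx3 had no row. Theca and stroma markers (4 of 7 listed) summed to 0.39 to 0.54 TPM, and immune and blood markers (2 of 6 listed) to 1.64 to 3.53 TPM, highest in irradiated library 2. That library stood apart. Of 9438 genes with a mean of at least 1 TPM, 1667 (17.7%) lay more than 1.5-fold outside the other 3 libraries in irradiated library 2, against 7 to 10 genes for each other library. The part of this difference in the results below was not tested, and fold changes of named genes that moved by more than 1.5 times without the library are given without it too.

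The promoter windows of Bcl2l1 and Bax are shown because Bcl2l1 was the member with the largest separation between the groups and Bax is its effector partner and a textbook p53 target. Each is the 250 bases before a RefSeq transcription start in GRCm38.p6, written 5′ to 3′ on the strand of the gene (minus for both), Bcl2l1 at chr2:152831729-152831978 and Bax at chr7:45466899-45467148. Capitals mark the TATAAA box, the CCAAT box, the GGGCGG box and the p53 decamer consensus, each searched on both strands.
Bcl2l1: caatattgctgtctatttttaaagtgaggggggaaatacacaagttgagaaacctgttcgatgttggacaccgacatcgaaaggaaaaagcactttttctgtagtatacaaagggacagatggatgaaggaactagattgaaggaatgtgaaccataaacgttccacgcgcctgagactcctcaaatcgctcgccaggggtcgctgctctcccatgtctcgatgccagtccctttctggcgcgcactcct
Bax: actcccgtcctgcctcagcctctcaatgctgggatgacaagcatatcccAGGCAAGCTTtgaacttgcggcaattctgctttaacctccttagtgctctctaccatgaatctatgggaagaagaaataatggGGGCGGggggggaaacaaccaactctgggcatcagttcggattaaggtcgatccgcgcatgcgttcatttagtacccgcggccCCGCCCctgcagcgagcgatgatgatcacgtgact
The Bcl2l1 window, with 47.6% G and C, held none of these motifs, and nor did the windows at 2 further Bcl2l1 starts. These starts lie within the annotated body of Bcl2l1, whose 5′ end is at chr2:152833803. The bases before that end were not searched. The Bax window, with 54.0% G and C, held 1 p53 decamer match, whose first base lies 201 bases before the start, and 2 GGGCGG matches. No other member window searched held the p53 decamer, including those of Bbc3, another p53-family target. Over all 32817 windows of this length, 7.12% held the p53 decamer, 32.7% GGGCGG, 33.8% CCAAT and 12.4% TATAAA. A letter match describes the window and is not evidence of binding.

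Bcl2l10 was by far the most abundant member. The gene lies at chr9:75347758-75351640 and encodes a BCL2-like protein known for its expression in the ovary, and it is grouped here with the prosurvival members by sequence family. Its level was 3110.67 and 3190.34 TPM in the control libraries and 3299.99 and 2939.76 TPM in the irradiated libraries. The groups overlapped, with irradiated library 1 the highest and irradiated library 2 the lowest of all. Its mean of 3135.19 TPM ranked 44th of 17374 genes, and it made up 97.9% to 98.8% of the summed TPM of the 9 members in each library. The genes closest to it in level over the 4 libraries were Glrx (glutaredoxin), Fbxw18 (an F-box protein) and Bpgm (bisphosphoglycerate mutase), with root mean square differences in log2(TPM + 1) of 0.0819, 0.104 and 0.138.

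Bax, the pore-forming effector at chr7:45461695-45466903, followed at 28.89 and 23.33 TPM in control and 33.49 and 23.29 TPM in irradiated libraries. Bcl2l1, the gene of BCL-XL at chr2:152758732-152833803, was at 11.01 and 11.47 TPM in control and 16.29 and 36.37 TPM in irradiated libraries. Bax lay above Bcl2l1 in 3 libraries and below it in irradiated library 2. The remaining members were low. Mcl1, a short-lived prosurvival protein required in many cell types, was at 1.51 and 1.61 TPM in control and 1.48 and 2.31 TPM in irradiated libraries. Bcl2l11 (BIM), a BH3-only protein that binds all prosurvival members, was at 0.70 and 0.77 TPM and at 0.83 and 1.23 TPM. Bid, which links caspase-8 to the mitochondrion, was at 0.35 and 0.29 TPM and at 0.44 and 0.50 TPM. Of these 3 genes Mcl1 was the highest in every library, and each had its highest TPM in irradiated library 2. In counts normalized between libraries, Mcl1 and Bcl2l11 were still highest there. Bid was then highest in irradiated library 1, at 20.2, beside 17.2 in irradiated library 2.

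Transcripts of 3 further members were close to the detection limit. Bok, an effector that can act without BH3-only activation, had 11 and 4 counts in control and 16 and 7 counts in irradiated libraries. Bcl2, the founding prosurvival gene, had 5 and 4 counts in control and 7 and 7 counts in irradiated libraries. Bbc3, the p53-family target that encodes PUMA, was at 0 counts in both control libraries and in irradiated library 1 and at 3 counts in irradiated library 2. A count of 0 allows up to 3 counts, which is 0.0806 to 0.0900 CPM (counts scaled by the library total alone), and such limits cover counting error only. In the order of mean TPM, which was Bcl2l10, Bax, Bcl2l1, Mcl1, Bcl2l11, Bid, Bok, Bcl2 and Bbc3, the neighbours Bax and Bcl2l1, Bid and Bok, and Bcl2 and Bbc3 overlapped in their ranges over the 4 libraries, and the other neighbours did not. The plot of TPM by library shows the distance between Bcl2l10 and every other member.

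**Figure D1:**
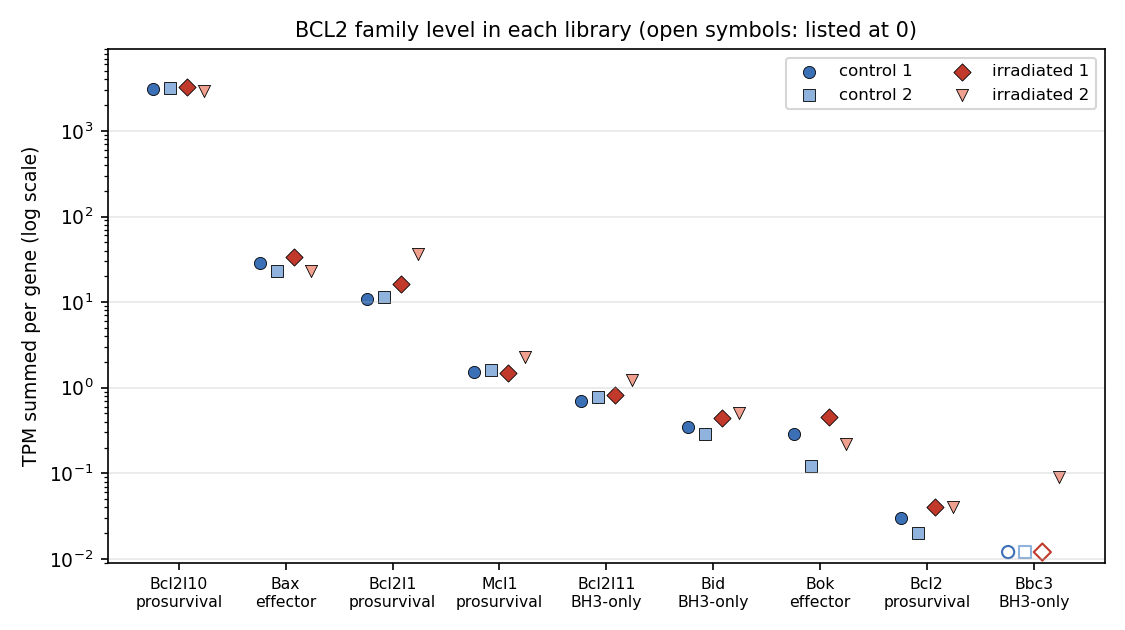
Level of each BCL2 family gene in each library, as TPM summed over its transcripts on a log scale, with 1 symbol per library and open symbols at the lower edge for a gene listed at 0. Bcl2l10 lies between 2939.76 and 3299.99 TPM, Bax and Bcl2l1 between 11.01 and 36.37 TPM, and the other members at or below 2.31 TPM.

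The balance between classes was set against this level. The prosurvival members together summed to 3123 and 3203 TPM in control and to 3318 and 2978 TPM in irradiated libraries, which overlapped. Without Bcl2l10 they summed to 12.55 and 13.1 TPM in control and to 17.81 and 38.72 TPM in irradiated libraries, a sum made up almost wholly of Bcl2l1. The effectors summed to 29.18 and 23.45 TPM in control and 33.95 and 23.51 TPM in irradiated libraries, and overlapped. The BH3-only members Bid, Bcl2l11 and Bbc3 summed to 1.05 and 1.06 TPM in control and 1.27 and 1.82 TPM in irradiated libraries. That was an order of magnitude below the effectors. This does not hold for all BH3-only genes, since Bik, outside the members, was at 29.68 and 32.81 TPM in control and 33.04 and 70.47 TPM in irradiated libraries. Bad was at 1.65 to 2.85 TPM, and Bmf, Hrk and Pmaip1 were at or below 0.12 TPM. The ratio of Bax to Bcl2l1 in TPM was 2.62 and 2.03 in control and 2.06 and 0.64 in irradiated libraries. Irradiated library 1 thus fell within the control range and irradiated library 2 below it. The ratio of Bcl2l1 to Mcl1 was 7.29 and 7.12 in control and 11.01 and 15.7 in irradiated libraries, and that of Bcl2l10 to Bax ran from 98.5 to 137 without separating the groups.

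The comparison of irradiated with control oocytes addressed which transcripts respond to a non-lethal dose of radiation. The test was edgeR's quasi-likelihood test on gene totals with Benjamini-Hochberg adjustment over 12569 genes, and genes were called by the limits of the study, a change beyond 2 on the log2 scale in either direction together with an adjusted p under 0.05. Of the 9 listed members 7 passed the filter on low counts, and Bcl2 and Bbc3 did not. By edgeR, 0 of the 7 were called, against 0.00796% of all genes tested. DESeq2 called 0 of them as well, and 5 of the 12569 genes tested. At an unadjusted p under 0.05 there was 1 member, Bcl2l1, against 5.92% of all genes. Both irradiated libraries lay above both controls in normalized count for 3 members, Bcl2l1, Bcl2l11 and Bid, against 22.1% of genes, and below both controls for 0 members, against 19.9%. The median log2 fold change of the 7 members was 0.21, beside 0.01 for all genes tested.

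Bcl2l1 differed most. Its estimated counts were 681 and 630 in control and 924 and 1942 in irradiated libraries. Scaled to library size by trimmed mean of M-values (TMM), control oocytes averaged 690.4 ± 10.7 (SD, n = 2) and irradiated oocytes 1327 ± 488 (SD, n = 2). Both irradiated libraries were above both controls, and they differed more from each other than irradiated library 1 did from the controls. The log2 fold change was 0.94 (SE 0.243, 95% interval 0.37 to 1.52), a fold of 1.92, with an unadjusted p of 0.00609 and an edgeR adjusted p of 0.708. With irradiated library 2 left out the value fell to 0.51, and with irradiated library 1 left out it was 1.26. In both of these fits the lone irradiated library is assumed to vary like the control libraries, so only the size of the change is given. The direction was the same in each irradiated library and the size was not, and the log2 fold change stayed under the limit of 2 in every fit. The annotated body of Bcl2l1 overlaps that of Cox4i2 over 6308 bases, and whether counting used strand is not given in the sources used here. Cox4i2 had 286 and 250 counts in control and 221 and 365 counts in irradiated libraries, higher than both controls in irradiated library 2 only.

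Bcl2l10 had 88560 and 81294 counts in control and 87056 and 72506 counts in irradiated libraries. The log2 fold change was -0.21 (SE 0.300, 95% interval -0.92 to 0.50, edgeR adjusted p = 0.829). Counting error is small at this depth, so the width of the interval comes from the spread between libraries, and folds from 0.529 to 1.42 lie within it. On leaving out irradiated library 2 this became 0.05, and on leaving out irradiated library 1 it became -0.53.

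Bax had 538 and 391 counts in control and 581 and 378 counts in irradiated libraries, so the groups overlapped fully and each held a higher and a lower library. Its log2 fold change was -0.05 (95% interval -0.76 to 0.65, edgeR adjusted p = 0.956), which became 0.34 on leaving out irradiated library 2 and -0.60 on leaving out irradiated library 1. Mcl1 had 137 and 129 counts in control and 123 and 179 counts in irradiated libraries, with a log2 fold change of 0.03 (95% interval -0.42 to 0.48, edgeR adjusted p = 0.964). Of the members tested, Mcl1 had the narrowest interval, and it leaves out a 1.5-fold change in either direction. Bok had a log2 fold change of 0.49 with an interval from -1.16 to 2.15, which reaches past the limit of 2. Without irradiated library 2, Mcl1 was at -0.10 and Bok at 1.10, and without irradiated library 1, at 0.13 and -0.39.

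The BH3-only members that could be tested were Bcl2l11 and Bid. Bcl2l11 had 86.9 and 86.9 counts in control and 95.8 and 128 counts in irradiated libraries, and a log2 fold change of 0.21 (95% interval -0.26 to 0.68, edgeR adjusted p = 0.751). Bid had 16 and 12 counts in control and 19 and 20 counts in irradiated libraries, and a log2 fold change of 0.34 (95% interval -0.56 to 1.23, edgeR adjusted p = 0.787). For both genes both irradiated libraries lay above both controls, and the 95% interval included 0. Without irradiated library 1 the value for Bid was 0.21. Bbc3 and Pmaip1, the targets tied to oocyte death, had too few counts for a test. Pmaip1 had 3 and 4 counts in control and 1 and 7 counts in irradiated libraries, which overlapped.

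**Figure D2:**
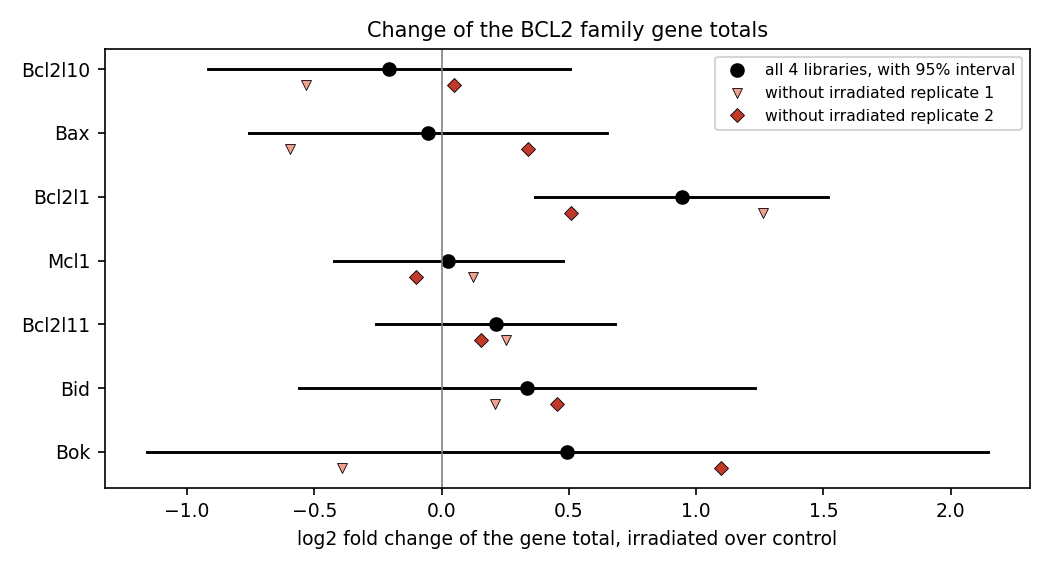
Log2 fold change of the 7 tested BCL2 family gene totals, irradiated over control, from edgeR's quasi-likelihood fit of all 4 libraries (black points, lines are 95% intervals), with the value from fits that leave out irradiated replicate 1 (pale triangles) or 2 (red diamonds). The Bcl2l1 interval, 0.37 to 1.52, lies above 0, and the points of Bcl2l10, Bax, Mcl1 and Bok fall on both sides of 0 depending on the library left out.

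Single transcripts were compared next, since the study tested transcripts and several members have more than 1 listed form. Of the 27 member transcripts 13 passed the filter. By edgeR, 0 of the 13 were called, against 0% of all 26645 transcripts tested, and 4 had an unadjusted p under 0.05, against 4.9%. DESeq2 without a filter called 0.862% of all transcripts with an adjusted p and 0 member transcripts. The 4 were the main and the next most abundant transcript of Bcl2l1 and both transcripts of Bid.

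For Bcl2l1, NM_009743.5 had 642 and 596 counts in control and 871 and 1783 counts in irradiated libraries, with a log2 fold change of 0.94 (edgeR adjusted p = 0.899), or 0.51 without irradiated library 2. This transcript made up 94.3% and 94.6% of the Bcl2l1 counts under control conditions, beside 94.3% and 91.8% after irradiation. NM_001289716.1 had 20.6 and 16.3 counts in control and 49.0 and 114 counts in irradiated libraries, with a log2 fold change of 1.97 (SE 0.559, 95% interval 0.37 to 3.56, edgeR adjusted p = 0.787). Its share was 3.08% (95% exact binomial interval 1.92% to 4.68%) and 2.54% (1.46% to 4.09%) in control and 5.30% (3.95% to 6.95%) and 5.87% (4.87% to 7.01%) in irradiated libraries. Both transcripts were higher in both irradiated libraries, and the other 6 listed forms had at most 18.4 counts in any library.

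Bid showed the widest difference between its transcripts. XM_006505410.4, a RefSeq model transcript, had 16 and 12 counts in control and 0 and 0 counts in irradiated libraries. NM_007544.4, the curated transcript, had 0 and 0 counts in control and 19 and 20 counts in irradiated libraries. Each library therefore gave all its Bid counts to a single transcript, and the form changed with the group. For a fold value, the absent form was set to 3 counts per library. After TMM scaling, the model transcript was then 5.04-fold lower and the curated transcript 5.98-fold higher in irradiated oocytes. By library total alone they were 4.62-fold lower and 6.54-fold higher. These values leave out the counting error of the present form and the error of dividing reads between the forms, so they are not lower bounds. The edgeR adjusted p was 0.777 for each. In a test of isoform usage (edgeR's diffSpliceDGE with Simes' method over 6323 genes), Bid had an unadjusted p of 0.00777 and an adjusted p of 0.323. With the F test of the same tool the adjusted p of edgeR was 0.0617, and with limma 0.391. Of the 4 members tested for usage 0 were called, against 0.253% of genes, and 1 had an unadjusted p under 0.05, against 6.12%. A swap of this kind, with at most 3 counts in each library of the absent group and at least 10 where present, occurred in 73 of 9425 genes with 2 or more listed transcripts (0.775%), and in 9 of the 3720 genes with exactly 2. Both totals include genes with too few counts to meet this rule, so the shares understate how often it was met among genes that could.

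**Figure D3:**
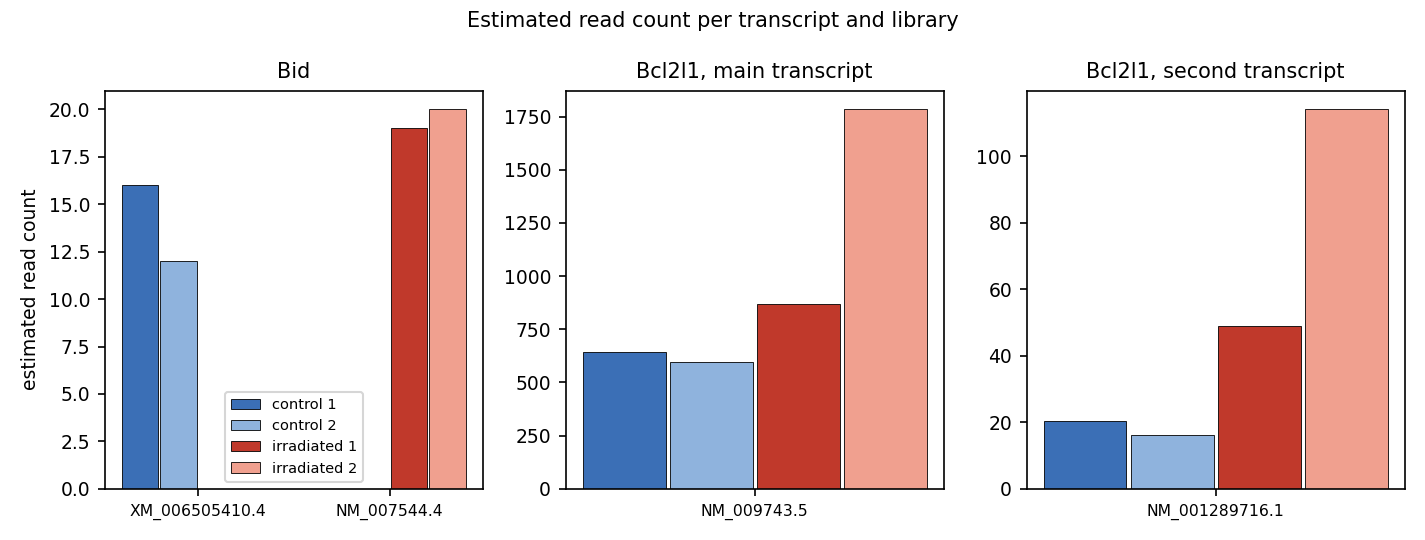
Estimated read count per library of the 2 Bid transcripts (left) and of the most abundant and next most abundant Bcl2l1 transcripts (middle and right), as bars from 0, each panel with its own scale. The Bid counts are all on the model transcript in control (16 and 12) and all on the curated transcript in irradiated libraries (19 and 20), while both Bcl2l1 transcripts are highest in irradiated library 2.

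The other members with several listed transcripts gave no such swap. For Bax, NM_007527.3 made up 92.6% and 97.2% of the control counts and 90.4% and 93.1% of the irradiated counts, and the groups overlapped. Bcl2l11, whose transcripts encode BIM forms of different length, had 9 listed transcripts. Its most abundant, NM_207681.2, had 38.8 and 48.7 counts in control and 13.0 and 41.6 counts in irradiated libraries, with a log2 fold change of -0.87 (95% interval -2.88 to 1.15, edgeR adjusted p = 1.00), or -1.74 without irradiated library 2 and -0.34 without irradiated library 1. The share of NM_207681.2 in the Bcl2l11 counts was 44.8% and 56.3% in control and 13.5% and 32.8% in irradiated libraries, without overlap. Its TMM-scaled counts were also lower in both irradiated libraries. The 95% exact binomial intervals of control library 1 (34.1% to 55.9%) and irradiated library 2 (24.8% to 41.7%) overlapped. The next most abundant, NM_207680.2, had 33.3 and 15.3 counts in control and 39.7 and 24.4 counts in irradiated libraries, which overlapped. XM_006498614.3 had 0 and 20.2 counts in the 2 control libraries, beside 22.9 and 24.7 counts in irradiated libraries, so its control replicates differed widely. The usage test gave an edgeR adjusted p of 1 for Bax, Bcl2l1 and Bcl2l11.

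The members were set beside other genes of the same pathway. Over all genes tested, 0.00796% were called by edgeR and 5.92% had an unadjusted p under 0.05. At such shares, a count of 0 in lists this short says little about them. Of 19 further BCL2 family genes 15 were listed and 10 tested, and edgeR called 0, with 0 at an unadjusted p under 0.05 and a median log2 fold change of -0.02. The highest was Bnip3l, a mitophagy receptor, at 122 to 149 TPM, far below Bcl2l10. Bik, a BH3-only gene, had 613 and 609 counts in control and 635 and 1268 counts in irradiated libraries (log2 fold change 0.46, edgeR adjusted p = 0.708), while Bcl2l12 had 139 and 158 control counts beside 159 and 385 irradiated counts. For both, the excess over the controls came from irradiated library 2. Bnip2 was at -0.18 and Bnip3l at -0.27 on the log2 scale. Bmf and Hrk, BH3-only genes, had at most 6 counts in any library.

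Of 13 genes upstream of the BH3-only genes, edgeR called 0, 1 had an unadjusted p under 0.05, and the median log2 fold change was -0.08. That gene was Trp73, a member of the p53 family, with 46 and 51 counts in control and 79 and 161 counts in irradiated libraries (log2 fold change 1.13, SE 0.299, edgeR adjusted p = 0.708). Its libraries ranked as those of Bcl2l1 did at the top, with irradiated library 2 highest and irradiated library 1 next. Trp63 itself had 380 and 413 counts in control and 409 and 426 counts in irradiated libraries, which overlapped. Mdm2, the p53 target that limits p53, had 8442 and 7401 counts in control and 10042 and 11626 counts in irradiated libraries (log2 fold change 0.31, edgeR adjusted p = 0.708). Both irradiated libraries were above both controls for Mdm2, and its values did not pass the test. Chek1, a checkpoint kinase, had a log2 fold change of -0.44 (edgeR adjusted p = 0.708), and was -0.82 from the control mean in irradiated library 2 and -0.14 in irradiated library 1. Mdm4, an inhibitor of p53, was the most abundant gene of this list at 580 to 659 TPM, with a log2 fold change of -0.16, and that of Atr, a damage kinase, was -0.26.

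Among 16 tested genes of the apoptosome and the steps after it, edgeR called 0, with 0 at an unadjusted p under 0.05 and a median log2 fold change of 0.04. Cycs, the gene of the cytochrome c that the effectors release, had 16067 and 14935 counts in control and 13408 and 15637 counts in irradiated libraries (log2 fold change -0.24, edgeR adjusted p = 0.730). Casp8, the protease that cleaves BID, had a log2 fold change of -0.18 (edgeR adjusted p = 0.725). Dffb, the caspase-activated nuclease, had 12 and 16 counts in control and 31 and 25 counts in irradiated libraries (log2 fold change 0.86, edgeR adjusted p = 0.708). Birc5 (survivin) was the most abundant gene of the list, at 2522 to 2927 TPM, with a log2 fold change of -0.34, and Endog, a mitochondrial nuclease, had 0.28.

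Of 13 mitochondrial partners and 10 genes of MCL1 and BH3-only protein turnover, all tested, edgeR called 0, with 0 at an unadjusted p under 0.05 and median log2 fold changes of -0.07 and -0.10. Vdac1, an outer membrane channel that binds BCL-XL, had 204 and 196 counts in control and 164 and 596 counts in irradiated libraries, so the 2 irradiated libraries lay on either side of the controls. Usp9x, the deubiquitinase of MCL1, had a log2 fold change of -0.22 (edgeR adjusted p = 0.719). The most abundant genes of these lists were Vdac3, another channel, at 640 to 683 TPM and Ube2c, a ubiquitin-conjugating enzyme, at 430 to 573 TPM, with log2 fold changes of -0.21 and -0.25. The fusion genes Mfn2 and Opa1 were at 0.21 and -0.19, and Trim17, a ubiquitin ligase of MCL1, was at 0.32. Without irradiated library 2 the log2 fold changes of the genes named from these lists came to 0.0382 for Bnip3l, 0.11 for Bcl2l12, 0.07 for Bik, -0.01 for Bnip2, -0.05 for Mdm4, 0.72 for Trp73, -0.14 for Chek1, -0.12 for Birc5, -0.06 for Vdac3, -0.27 for Vdac1, 0.40 for Mfn2, -0.01 for Opa1, 0.10 for Ube2c and 0.12 for Trim17. For the other genes named with a fold change (Mdm2, Atr, Dffb, Endog, Casp8, Cycs and Usp9x) leaving out that library moved the value by less than 1.5 times, and leaving out irradiated library 1 moved Dffb to 0.53.

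The position of each gene in the 2 irradiated libraries was compared over the members and these lists. Of 69 tested genes, 4 lay more than 0.5 from the control mean on the log2 scale in irradiated library 1, against 8.03% of all genes tested, and 15 did in irradiated library 2, against 27.6%. Of these 69, 3 were higher by more than 0.5 in both, Bcl2l1, Trp73 and Dffb, against 2.31% of all genes tested. Bcl2l1 was higher by 0.51 and 1.28, Trp73 by 0.71 and 1.44, and Dffb by 1.15 and 0.54. Bax and Bok lay above the control mean in irradiated library 1, by 0.34 and 1.12, and below it in irradiated library 2, by -0.58 and -0.37 on the same scale. For Bax the 2 irradiated libraries lay on opposite sides of both controls, while for Bok irradiated library 2 lay between the controls.

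**Figure D4:**
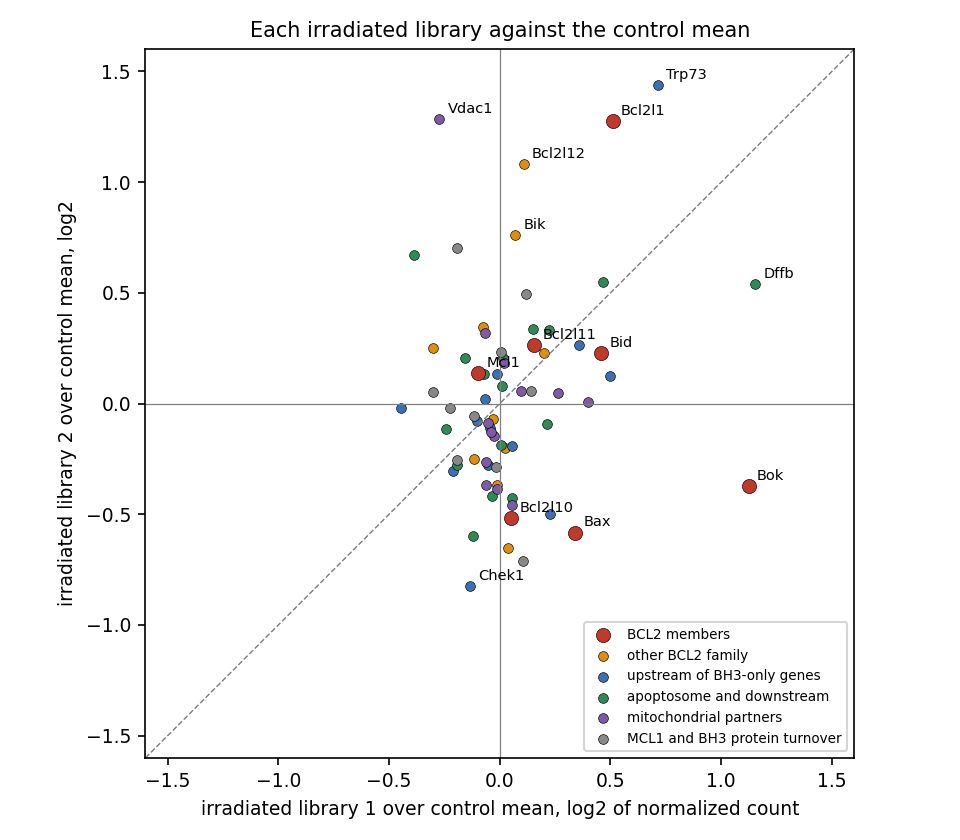
Log2 ratio of the TMM-normalized count to the control mean, in irradiated library 1 (horizontal) against irradiated library 2 (vertical), with 1 point per tested gene of the members and the pathway lists and a dashed line of equal change. Points spread more along the vertical axis (15 genes beyond 0.5) than along the horizontal axis (4 genes), and Bcl2l1, at 0.51 and 1.28, is the member that is above 0.5 in both.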

How the data were processed

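Oocytes were sequenced by the authors in 2 control and 2 irradiated libraries as paired-end reads of 100 bp on a HiSeq platform. The deposited table lists RefSeq transcripts with estimated counts, TPM and FPKM per library. Reads were aligned to GRCm38 (mm10) by the authors with Bowtie2. The submitters' processing notes also name HISAT2 and RSEM, with versions not given in the sources used here. The authors' averages and comparisons (6 columns) were not used. The members and lists were chosen with earlier results of these data known.

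Transcripts were summed by gene ID (17323 of 17374 matched a symbol), and estimated counts were rounded. edgeR 4.0.16 (quasi-likelihood, filterByExpr minimum count 10, TMM factors 0.923 to 1.19, no block, Benjamini-Hochberg) gave tests and 95% intervals, and diffSpliceDGE gave isoform usage. Alternatives used DESeq2 1.42.0 and limma 3.58.1, with log2(TPM + 1) or log2(TPM + 0.1), run in R 4.3.3. Scripts were tested on simulated data. Levels are described in TPM, and deposited FPKM values served as an alternative. Named genes outside the members were, per list, the most abundant gene, any called gene, and up to 2 higher and 2 lower genes by unadjusted p, of which 1 is not reported here. For members, their most abundant transcripts were named, and the 3 genes nearest in level to the most abundant member. Other genes and transcripts in the text (Cox4i2, Pmaip1, Bmf, Hrk, Trp63, the markers and further member transcripts) were picked with their values in view. The study describes independent experimental replicates. P-values measure only the spread between these libraries.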

Additional observations from a re-analysis of the deposited data

How the results depend on the processing

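The counts of called member totals, member transcripts, isoform usage and pathway genes were 0 under every alternative that kept all libraries. These included DESeq2, the edgeR exact test and limma-voom. Few gene totals of any kind passed these limits, so 0 among the members says little about them. Of 12569 genes, 1 was called in the main fit, 5 by DESeq2, 10 by the exact test and 0 by limma-voom. With curated (NM_) transcripts alone, 6 genes held their place in the order of levels, where the full table gave 9. The only transcript listed for Bbc3 was a model transcript, and Bid and Bok traded places. Against the median of all genes tested (0.01), library size alone moved it to 0.17 and log2(TPM + 1) to 0.18, so fold changes near 0 turned sign with the scaling. By library size, Bax was 0.0649 and its transcript NM_007527.3 0.0165. On log2(TPM + 1), with or without a filter, and on log2(TPM + 0.1) the values were 0.102 and 0.105 for Bax, 0.0563 and 0.0578 for NM_007527.3, 0.0632 and 0.0633 for Mdm4, 0.0258 and 0.0327 for Atr, 0.0394 and 0.0399 for Casp8, 0.00525 and 0.00526 for Vdac3, 0.0243 and 0.0282 for Opa1, and 0.00277 and 0.00261 for Usp9x. Curated transcripts alone gave -0.22 for Bcl2l11, 0.84 for Casp8, 1.27 for Mdm2, 1.45 for Dffb, -0.48 for Usp9x, -0.05 for Bnip2 and -0.10 for Bax, and the cause was not tested. They left Bid with the transcript that had 0 counts in control, where the fitted 7.24 is no measure of size. Leaving out each library, the log2 fold changes ran from -0.53 to 0.0505 for Bcl2l10, -0.10 to 0.13 for Mcl1, -0.60 to 0.34 for Bax, -0.39 to 1.34 for Bok, 0.51 to 1.26 for Bcl2l1, -0.67 to 0.0382 for Bnip3l, -0.27 to 1.27 for Vdac1, -0.00608 to 0.40 for Mfn2, -0.72 to 0.10 for Ube2c, -0.50 to 0.0547 for NM_013479.2, -0.58 to 0.28 for NM_007527.3, -0.0942 to 0.16 for NM_008562.3 and -0.35 to 1.39 for NM_016778.3.

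For Bcl2l1 the adjusted p ranged from 0.158 (edgeR with a replicate block) to 0.807 (edgeR, curated transcripts) over the alternatives that kept all libraries. The replicate numbers are shared by the groups, but the deviations of same-numbered libraries correlated at 0.0975 over 12569 genes, and the labels do not say that a number marks a shared experiment. The replicate block gave 8 genes with an adjusted p under 0.05 in place of 1, a log2 fold change of 0.90 for Bcl2l1, and no change in any call on a member. Counts of 20 or fewer limit Bid, Bok, Bcl2 and Bbc3.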
